A study of Gallus gallus with 12 samples.

Results

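The miRNAs gga-miR-2131-5p and gga-miR-2954, here miR-2131-5p and miR-2954, are a pair of mature chicken miRNAs whose genes, MIR2131 and MIR2954, lie close together on chromosome Z. They were taken by name from the deposited miRNA table and are 2 of the 38 miRNAs listed there. The table holds RPM, the reads of each miRNA scaled to the same total in every bird, for 12 birds aged 8 weeks by the labels. Breast muscle was sampled from 6 pedigree male (PeM) broilers, a line selected for growth and feed efficiency, and from 6 Barred Plymouth Rock (BPR) chickens, an unselected breed with slow growth. No bird received a treatment. PeM is used here as the name of the line, and neither the labels nor the study's methods give the sex of a bird. The PeM birds came from a breeding company and the BPR birds from a university flock, so breed and source cannot be told apart.

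A miRNA is a short RNA that guides silencing proteins to matching messenger RNAs and lowers their translation or stability. In birds males carry a pair of Z chromosomes and females a single Z with a W, and the level of many Z-linked genes is not fully evened out between the sexes. MiR-2954 is known as a miRNA with higher levels in male than in female tissues of birds. MiR-2131-5p was described in birds, and its targets in muscle are not well established.

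In the RefSeq gene table of the assembly GRCg7b, MIR2954 lies within the span of XPA, which encodes a DNA repair protein, and MIR2131 within the span of NCBP1, which encodes a subunit of the nuclear cap-binding complex. XPA and NCBP1 are neighbours, with 0 protein-coding genes between them. A further miRNA gene, MIR1583, lies between MIR2954 and MIR2131, and its miRNA is not among the 38 listed. Coordinates are not given because the labels name another build, galGal5. Of the 38 miRNAs, 3 have a gene on chromosome Z in that table: both members and miR-24-3p, from MIR24-2 in the miR-23b, miR-27b and miR-24 cluster.

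All 4 skeletal muscle miRNAs of the marker list (miR-1a-3p, miR-133a-5p, miR-133c-3p and miR-206) were present in every bird. Together they held 30.12% to 42.47% of a bird's RPM total. The number of reads behind the RPM values was recovered from their steps, which were whole for 97.1% of the 456 values (within 0.005 of a read). Totals were 4784 to 12454 reads in BPR and 3021 to 9120 reads in PeM. These are the reads behind the RPM scaling and not the whole libraries, since the study reports far more clean reads for each breed. Read numbers, depth and shares of reads below refer to these recovered reads. The value of 1 read was therefore 80.3 to 331 RPM, and all counting intervals below are exact 95% Clopper-Pearson intervals that cover counting error only. Each bird was a separate library, and p-values are set against the spread between birds, counting error included.

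Both miRNAs were among the least abundant of the table. Over the 12 birds, miR-2954 averaged 1749 RPM (0.175% of the reads) and ranked 34 of 38, and miR-2131-5p averaged 1716 RPM (0.172%) and ranked 35. Their neighbours in this order were miR-22-3p above, at 2351 RPM, and miR-1454 below, at 1536 RPM. The near equality of the members was a property of the average over both breeds. In BPR miR-2954 ranked 34 and miR-2131-5p ranked 37, and in PeM the order was turned, with miR-2131-5p at 34 and miR-2954 at 37.

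MiR-2131-5p was higher in every PeM bird than in any BPR bird. In BPR it was at 836, 1180, 964, 867, 794 and 923 RPM in birds 1, 2, 3, 4, 6 and 7. In PeM it was at 3235, 2844, 2979, 2792, 1647 and 1535 RPM in birds 1, 4, 5, 8, 10 and 16. The lowest PeM bird, bird 16, was thus above the highest BPR bird, bird 2, and PeM birds 10 and 16 stood below the other 4. The mean over the 6 BPR birds was 927 RPM with an SD of 138, and over the 6 PeM birds 2505 RPM with an SD of 726.

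**Figure D1:**
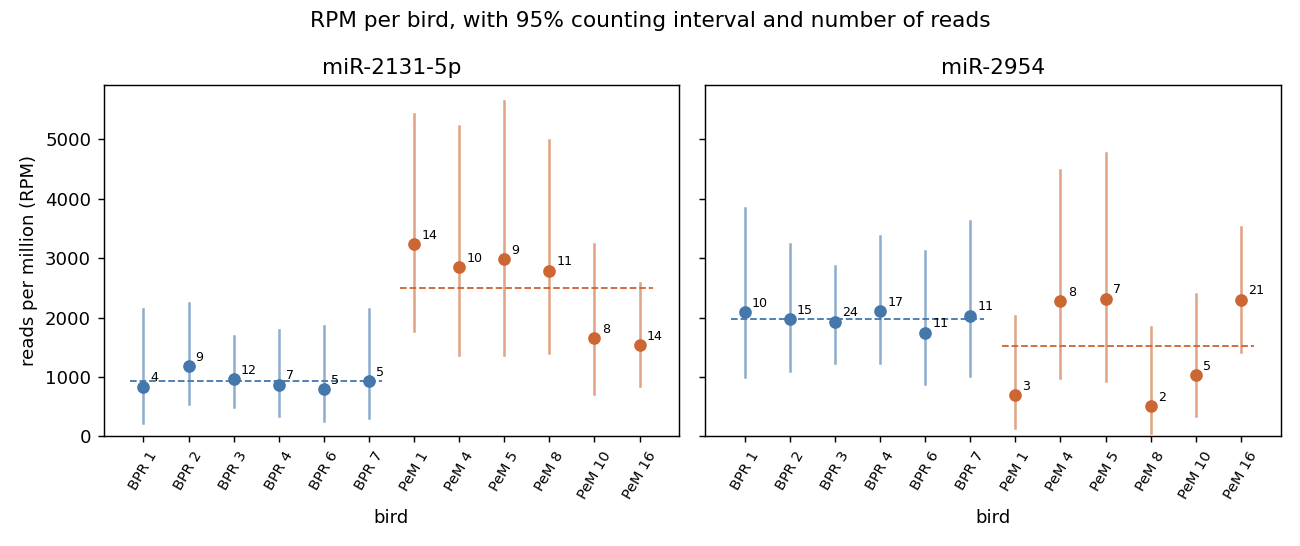
RPM (y axis) of miR-2131-5p (left) and miR-2954 (right) in each of the 12 birds (x axis), with vertical lines for the exact 95% counting interval, the number of reads beside each point and dashed lines for the breed means. MiR-2131-5p is at 1535 to 3235 RPM in PeM and 794 to 1180 RPM in BPR, while miR-2954 is at 1746 to 2105 RPM in BPR and from 508 to 2317 RPM in PeM.

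The log2 fold change of miR-2131-5p, PeM minus BPR, was 1.39 (standard error 0.21, 95% interval 0.94 to 1.83), a fold of 2.62, with an adjusted p of 0.000392 from limma over all 38 miRNAs. Permuting the breed labels over every possible assignment (exact, two-sided) gave p = 0.00216, the smallest it can give. The study set its thresholds at p under 0.05, without adjustment, and 1.2-fold. With its t-statistic the study called more miRNAs than the limma fit here. Let-7b, which it called, did not pass in limma (fold 1.196, limma unadjusted p = 0.0811). In the limma fit, 8 of the 38 miRNAs passed these thresholds (21.1%), 7 of them higher in PeM (18.4%), and 5 had an adjusted p under 0.05 (13.2%). MiR-2131-5p was among these 7 and these 5, and had the largest change. It was also the 1 miRNA of the 38 (2.63%) with all PeM birds above all BPR birds. This difference was already known when the miRNA was chosen, and its values are given as the base of what follows.

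The reads behind these values were few. MiR-2131-5p had 4 to 12 reads per BPR bird and 8 to 14 reads per PeM bird, or 42 of 44660 reads in BPR and 66 of 28783 reads in PeM. From these pooled reads its level was 940 RPM in BPR (counting interval 678 to 1271) and 2293 RPM in PeM (1774 to 2916), so the intervals of the breeds did not meet. The intervals of the 12 single birds had no value in common, since that of PeM bird 1 started at 1770 RPM and that of BPR bird 3 ended at 1683 RPM. Within each breed all 6 intervals overlapped.

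MiR-2954 did not pass the thresholds. In BPR it was at 2090, 1967, 1927, 2105, 1746 and 2030 RPM in birds 1, 2, 3, 4, 6 and 7. In PeM it was at 693, 2275, 2317, 508, 1029 and 2303 RPM in birds 1, 4, 5, 8, 10 and 16. Birds 4, 5 and 16 of PeM were above all BPR birds, and birds 1, 8 and 10 were below all of them. The range of PeM therefore enclosed that of BPR, and no PeM bird lay inside the range of BPR.

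The mean of miR-2954 was 1977 RPM with an SD of 133 over the 6 BPR birds, and 1521 RPM with an SD of 868 over the 6 PeM birds. On the log2 scale the fold change, PeM minus BPR, was -0.62 (standard error 0.36, 95% interval -1.39 to 0.14), with an adjusted p of 0.353 from limma and p = 0.182 in the exact permutation test. This was the largest decrease of the 38 miRNAs in mean log2(RPM), yet at this spread no difference was detectable. The interval allows a fall to well under the BPR level as well as a small rise. MiR-206, the muscle miRNA that was the 1 miRNA called lower in PeM (2.63%), had a smaller change on this scale of -0.47 with a standard error of 0.18. From mean RPM, where low values weigh less than on the log2 scale, the log2 change of miR-2954 was -0.379. By that measure miR-451 (4920 RPM in BPR, 2846 RPM in PeM) and miR-206 (31760 and 23407 RPM) fell further. The call for miR-2954 depended on single birds. Its unadjusted limma p fell to 0.0441, 0.0445 and 0.0421 when PeM bird 4, 5 or 16 was left out, and it then passed the thresholds with log2 fold changes of -0.791, -0.796 and -0.794.

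**Figure D2:**
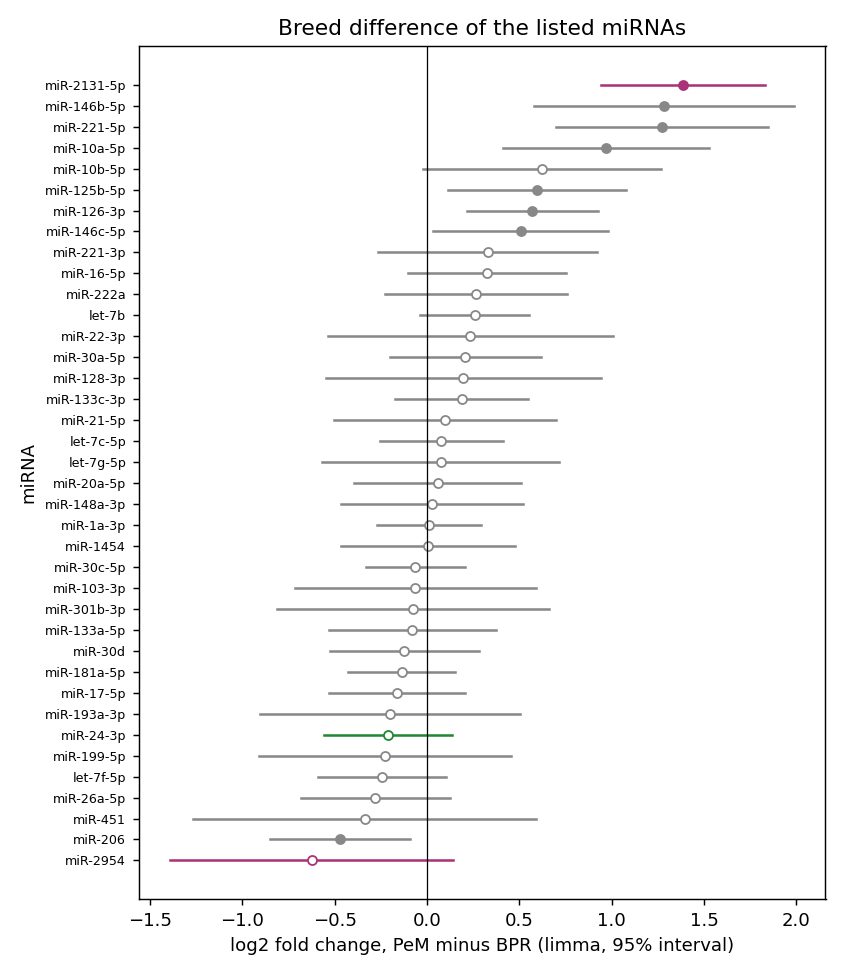
Log2 fold change of each of the 38 miRNAs, PeM minus BPR (x axis), with its 95% interval from limma, and miRNAs ordered by their change (y axis). Filled points passed the thresholds of the study, purple marks miR-2131-5p and miR-2954, and green marks miR-24-3p, so that both ends of the order, at 1.39 and -0.62, are held by the members, the lower end without passing.

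The spread of the log2(RPM) values of miR-2954, which includes counting error, differed between the breeds. Its SD of log2(RPM) was 0.10 in BPR, the lowest of the 38 miRNAs, and 0.98 in PeM, the highest of the 38. The coefficient of variation was 6.71% in BPR and 57.1% in PeM. The ratio of these log2 SDs, 9.84, ranked 1 of 38, where the median over all miRNAs was 1.16. The mean absolute deviation from the breed's median was 0.07 on the log2 scale in BPR and 0.84 in PeM, a difference of 0.77 (exact permutation test, p = 0.00216, the smallest possible, and 0.00361 adjusted over the 5 exact tests). These 5 tests cover the levels of both members, their ratio and both spreads. The level of miR-2131-5p, known to differ beforehand, and the ratio had the same p, which lowers the adjusted p of the spread. With deviations from the breed's median the p was 0.177, 0.191 and 0.177 when PeM bird 1, 8 or 10 was left out, and 0.0152 (exact) when PeM bird 4, 5 or 16 was. With deviations from the breed's mean the difference was again 0.77 (exact p = 0.00216), and the 12 fits of this measure that each lacked 1 bird, added after seeing the data, gave exact p between 0.00216 and 0.00433. Counting error was unequal, with a coefficient of variation from counting alone of 27.4% in BPR and 38.4% in PeM. The observed 6.71% in BPR was below its value from counting alone. The ratio of SDs and these p-values thus rest in part on a BPR spread smaller than counting gives on average. These tests cannot separate counting error from differences between the birds themselves. Deviations were also taken from each breed's own centre, so the permutation p is approximate.

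The counting intervals of miR-2954 overlapped between all birds. It had 3, 8, 7, 2, 5 and 21 reads in PeM birds 1, 4, 5, 8, 10 and 16, and PeM birds 1 and 8 were at or under a floor of 3 reads. Its counting interval was 61.5 to 1832 RPM in PeM bird 8 and 1426 to 3518 RPM in PeM bird 16, and every level from 1426 to 1832 RPM lay within the intervals of all 12 birds. The recovered totals were 4328, 3940 and 4858 reads in PeM birds 1, 8 and 10, and 3516, 3021 and 9120 in PeM birds 4, 5 and 16. Whether depth had a part in these values was not tested. From pooled reads, miR-2954 was at 1970 RPM in BPR (88 reads, counting interval 1581 to 2427) and 1598 RPM in PeM (46 reads, 1170 to 2131.2). PeM bird 16 gave 21 of these 46 reads.

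The variance of the reads across birds was also set against the variance that counting alone gives, as a ratio that is 1 when the birds differ by counting error alone. For miR-2954 it was 2.19 in PeM, which ranked 22 of 38 where the median was 2.37, and 0.0585 in BPR, the lowest of the 38. For miR-2131-5p it was 1.27 in PeM and 0.144 in BPR, which ranked 37. In BPR the 6 birds were thus more alike in both miRNAs than counting error alone would make them on average. The coefficient of variation of miR-2954 in BPR, 6.71%, compares with 27.4% from counting alone, and that of miR-2131-5p, 14.9%, with 39.6%. A standard error estimated from such a spread may be too small.

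**Figure D3:**
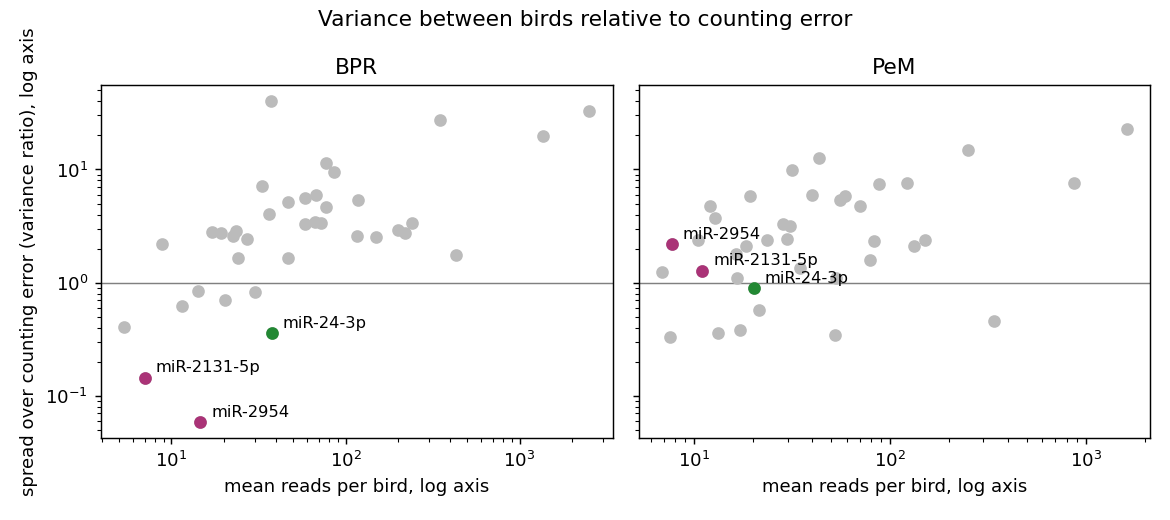
Variance of reads over the 6 birds of each breed, divided by that expected from counting (y axis, log axis), against mean reads per bird (x axis, log axis) for each of the 38 miRNAs in BPR (left) and PeM (right). The grey line marks 1, and in BPR miR-2954 at 0.0585, miR-2131-5p at 0.144 and miR-24-3p at 0.359 are the lowest 3 points, while in PeM they lie at 2.19, 1.27 and 0.895.

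The SD of log2(RPM) of miR-2131-5p was 0.20 in BPR and 0.47 in PeM, a ratio of 2.32 that ranked 5 of 38. Its mean absolute deviation from the breed's median differed by 0.18 (exact permutation test, p = 0.361), and after centring each bird on its median over the 38 miRNAs the direction was turned, at -0.114. With deviations from the breed's mean it was 0.254 (exact permutation test, p = 0.0173), and without PeM bird 10 or 16 that p was 0.229 or 0.323. A difference in the spread of miR-2131-5p was therefore not shown.

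**Figure D4:**
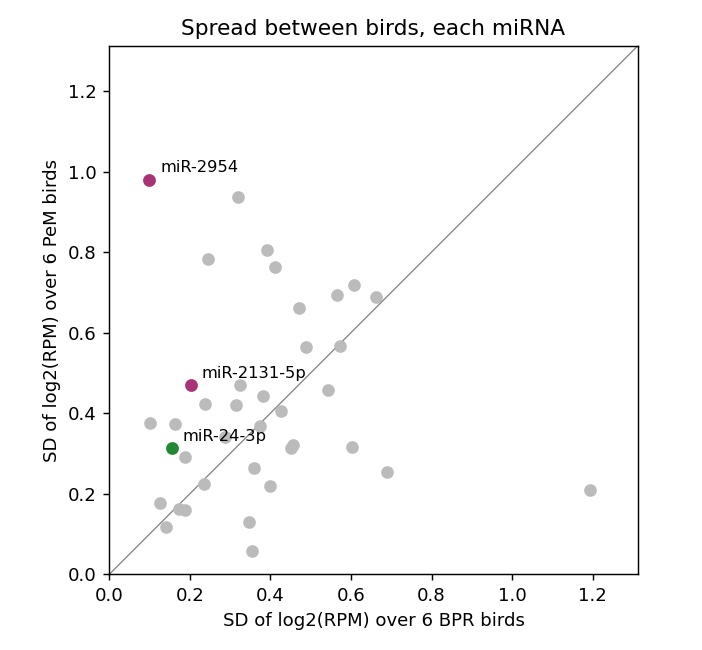
SD of log2(RPM) over the 6 PeM birds (y axis) against that over the 6 BPR birds (x axis) for each of the 38 miRNAs, with the line of equal spread. MiR-2954 lies at 0.98 in PeM and 0.10 in BPR, away from the line, and miR-2131-5p lies at 0.47 and 0.20.

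The ratio of miR-2131-5p to miR-2954 within a bird does not depend on how the bird's total was scaled. Both values count whole mature miRNAs, and how efficiently each one is captured in the library is not known, so the ratio is compared between birds and not read as a ratio of molecules. In BPR it was 0.4, 0.6, 0.5, 0.412, 0.455 and 0.455 in birds 1, 2, 3, 4, 6 and 7. In PeM it was 4.67, 1.25, 1.29, 5.5, 1.6 and 0.667 in birds 1, 4, 5, 8, 10 and 16. MiR-2954 was the higher of the pair in all 6 BPR birds, and miR-2131-5p was the higher in 5 of the 6 PeM birds, all but bird 16. By these point values every PeM bird was above every BPR bird, with the narrowest gap between PeM bird 16 and BPR bird 2. Of the reads of the pair, miR-2131-5p held 40% in PeM bird 16 (counting interval 23.9% to 57.9%) and 37.5% in BPR bird 2 (18.8% to 59.4%). Counting intervals of single birds thus overlapped between the breeds.

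The mean log2 ratio was -1.10 ± 0.21 in BPR and 0.91 ± 1.19 in PeM (SD, n = 6 birds each), a difference of 2.01 or 4.03-fold (exact permutation test, p = 0.00216, the smallest possible, and 0.00361 adjusted over the 5 exact tests). Of this difference, 1.39 came from miR-2131-5p, which was known to differ and separated the breeds by itself. The remaining 0.62 came from miR-2954, whose own change was not detected (exact permutation test, p = 0.182). The p of the ratio is therefore not separate support for a breed difference. The PeM birds farthest from the breed's mean were bird 16, with a log2 ratio of -0.58, and birds 1 and 8, at 2.22 and 2.46. In bird 16 miR-2131-5p had 14 reads and miR-2954 had 21. In birds 1 and 8 miR-2131-5p had 14 and 11 reads and miR-2954 had 3 and 2. Of the reads of the pair in these birds, miR-2131-5p held 82.4% (counting interval 56.6% to 96.2%) and 84.6% (54.6% to 98.1%). Pooled over birds, it held 32.3% of 130 reads in BPR (24.4% to 41.1%) and 58.9% of 112 reads in PeM (49.2% to 68.1%). PeM bird 16 gave 35 of these 112 reads, and the pooled intervals leave out differences between birds. Leaving out each bird in turn gave log2 differences from 1.70 to 2.31, with exact p of at most 0.00433.

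**Figure D5:**
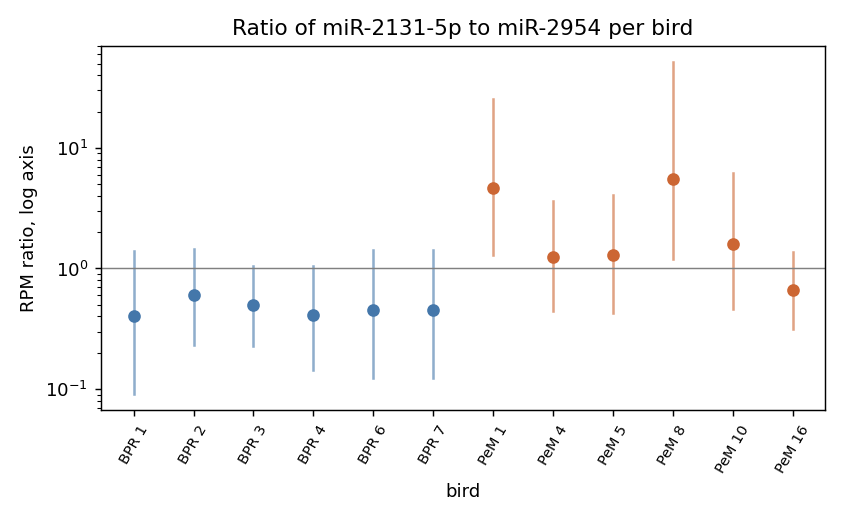
Ratio of miR-2131-5p to miR-2954 (y axis, log axis) in each of the 12 birds (x axis), with exact 95% counting intervals from the reads of the pair and a grey line at a ratio of 1. The points of the 6 BPR birds lie between 0.4 and 0.6 and those of the 6 PeM birds between 0.667 and 5.5. The points do not overlap, but the counting interval of every PeM bird overlaps those of BPR birds 1, 2, 6 and 7.

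No correlation of the pair over the birds of a breed passed its test at 6 birds each. No correlation over both breeds is given, since miR-2131-5p separates them. Within BPR Pearson's r of log2(RPM) was 0.14 (exact permutation test, p = 0.768, adjusted 0.768 over both breeds) and Spearman's rho was -0.03 (exact p = 1). Within PeM r was -0.25 (exact permutation test, p = 0.522, adjusted 0.768) and rho was -0.09 (exact p = 0.919). Without the 2 birds farthest from the median of miR-2954, r was -0.67 in BPR and 0.51 in PeM over 4 birds each, so that neither sign held. After centring each bird on its median over the 38 miRNAs, r in BPR was 0.81 (exact permutation test, p = 0.0569), so that the value in BPR depends on the scaling. In PeM, birds 1 and 8, lowest in miR-2954, were not low in miR-2131-5p, at 3235 and 2792 RPM, and bird 16, lowest in miR-2131-5p, was among the highest in miR-2954.

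MiR-24-3p, the further Z-linked miRNA of the table, is known for a part in muscle differentiation in mammals. It was at 4390, 5638, 5059, 5573, 4921 and 4428 RPM in BPR birds 1, 2, 3, 4, 6 and 7. It was at 3697, 4835, 6289, 4061, 3499 and 3947 RPM in PeM birds 1, 4, 5, 8, 10 and 16. PeM birds 1, 8 and 10, low in miR-2954, were below all BPR birds in miR-24-3p too, but so was PeM bird 16, which was high in miR-2954. The breed means were 5001 RPM (SD 537, n = 6) for BPR and 4388 RPM (SD 1038, n = 6) for PeM. This was a log2 fold change of -0.21 with a standard error of 0.16 and a limma adjusted p of 0.537. Of the 3 Z-linked miRNAs, 1 was thus called higher in PeM, 0 were called lower and 2 did not pass, against 18.4% higher and 2.63% lower over all 38. In BPR their variance relative to counting error took the lowest 3 ranks of the 38, with 0.359 for miR-24-3p. MiR-146b-5p, which is not Z-linked, came next at 0.405, and 8 of the 38 were below 1 in BPR. Ratios under 1 are smaller than counting error gives on average, so the order among them is not read as a trait of Z-linked miRNAs. In PeM the 3 Z-linked miRNAs ranked 22, 28 and 32.

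The miRNAs most like each member were sought by Pearson's r of log2(RPM) over the 12 birds after subtracting the mean of each breed, among 37 other miRNAs. All values of a bird share its library and depth. For miR-2954, whose SD of log2(RPM) was 0.98 in PeM and 0.10 in BPR, this r rests mainly on the PeM birds. The miRNAs named are those with the highest r of 37 per member, and the values are a description. For miR-2954 the highest were miR-181a-5p (0.64), miR-24-3p (0.52) and miR-22-3p (0.44). Within PeM r with miR-181a-5p was 0.86 and within BPR 0.69, while r with miR-24-3p was 0.59 and -0.07. That with miR-22-3p had opposite signs, 0.49 within PeM and -0.47 within BPR. For miR-2131-5p the highest were miR-16-5p (0.77), a miRNA abundant in red blood cells, miR-199-5p (0.51) and miR-103-3p (0.51). MiR-451, also abundant in red blood cells, was at -0.07 and ranked 22 of 37, with 0.46 within PeM and -0.37 within BPR. Within PeM r with miR-16-5p was 0.82 and within BPR 0.57, while that with miR-199-5p had opposite signs, 0.78 and -0.60. For miR-103-3p it was 0.59 within PeM and -0.05 within BPR.

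Lists of miRNAs taken here as markers of other cell types were set beside the breed difference of miR-2131-5p. Both red blood cell miRNAs, miR-451 and miR-16-5p, were present in every bird. Their summed level was 5701 to 18947 RPM in BPR (median 7421) and 5702 to 9954 RPM in PeM (median 7945). The BPR maximum was that of bird 4, and the next BPR bird, bird 6, was at 8571 RPM. The log2 fold change, PeM minus BPR, was -0.34 for miR-451 and 0.32 for miR-16-5p, and neither was called. The 5 miRNAs listed for blood immune cells were miR-146b-5p, miR-146c-5p, miR-21-5p, miR-221-3p and miR-222a. The list is not specific, since the study also links miR-146b and miR-221 to myoblasts. They summed to 22509 to 36161 RPM in BPR and 30671 to 46193 RPM in PeM. Of them, miR-146b-5p and miR-146c-5p were called higher in PeM, and miR-21-5p, miR-221-3p and miR-222a were not called. The endothelial miR-126-3p was at 33001 to 70318 RPM in BPR and 68782 to 77127 RPM in PeM. None of these miRNAs was at 0 in any bird, and their part in the result was not tested. In bulk muscle, fewer cells of a type and less RNA per cell cannot be told apart. The median number of reads per bird was 6963.5 in BPR and 4134 in PeM, and its part in the result was not tested. Without PeM bird 16, the PeM bird of most reads, the log2 fold change of miR-2131-5p was 1.52. Whether the sex of the birds had a part in the levels of miR-2954 was not tested, since no label gives it. PeM birds low and high in miR-2954 were set side by side as a description only, and no test used that grouping.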

How the data were processed

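Small RNA libraries (Illumina TruSeq, single-end) of 12 birds were analysed. After FastQC and adapter trimming (bbduk), reads were matched by the authors to miRBase's mature miRNAs of chicken in ArrayStar. The authors deposited RPM for the 38 miRNAs that reached an average of 5 reads in a breed. Versions and mismatches allowed are not given in the sources used here. The 5 deposited columns of breed averages, log2 means, fold changes and p-values were not used. Reads per bird were recovered by trying totals from 1000 to 20000 and keeping that with most values whole within 0.005. They were used for counting error and limma-voom.

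Log2(RPM) of all 38 miRNAs, without a pseudocount, was compared between breeds in limma (version 3.58.1, R version 4.3.3) with Benjamini-Hochberg adjustment, in place of the t-statistic of the methods. Exact tests used Python 3.11.15 and scipy 1.17.1, and scripts were tested on simulated data. Alternatives were pseudocounts of 1 and 100, other scalings, limma-trend, filters at 1500 and 2000 RPM, the bird number as a block, and leaving out each bird. Beyond the members, Z-linked miRNAs, neighbours in abundance and the 3 miRNAs most like each member are named. The names of the 38 miRNAs all matched RefSeq, 11 of them to more than 1 gene. The members, lists and tests were chosen with earlier results of these data known. Mature sequences and the qPCR are not analysed here.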

Additional observations from a re-analysis of the deposited data

Results flagged for a closer look

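The members' RPM, their ratio, miR-24-3p and the total reads were examined within each breed with Dixon's test, which asks whether the highest or lowest bird stands apart. Of these 10 groups of 6 birds, 1 had such a bird, and chance flags about 1 in 20. The total of PeM bird 16 was 9120 reads, while those of the 5 remaining PeM birds were 3021 to 4858, and the gap was 0.699 of the range. It also had the lowest miR-2131-5p of PeM, at 1535 RPM, and the lowest ratio of miR-2131-5p to miR-2954, at 0.667.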

How the results depend on the processing

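Limma-voom on the recovered reads, the fit without moderation and the leave-one-out fits with deviations from the breed's mean were chosen after seeing the data. MiR-2131-5p was called higher in PeM in all 12 alternative settings with a value, limma-voom and the fit without moderation included, and in all 12 fits without 1 bird, with log2 fold changes of 1.299 to 1.833. No value came from the filter at 2000 RPM, which removes both members. MiR-2954 was not called in any of the 12 settings that kept all birds or used the block (-0.74 to -0.38), and leaving out 1 bird gave -0.796 to -0.358. The log2 ratio ran from 1.66 to 2.57, and from 1.70 to 2.31 without 1 bird. The spread of miR-2954 differed by 0.508 to 0.801 without 1 bird, and by 0.621 to 0.866 with deviations from the breed's mean. For miR-2131-5p it was -0.114 after centring, 0.254 with deviations from the mean, 0.069 to 0.242 without 1 bird, and 0.126 to 0.311 with both. The cause was not tested. The correlation of the pair ran from -0.716 to 0.333 in BPR and from -0.455 to 0.053 in PeM without 1 bird. It turned negative without BPR bird 6 and positive without PeM bird 16, while RPM in place of log2(RPM) and centring changed neither sign. Centring each bird on its median moved r in BPR from 0.142 to 0.81 (exact permutation test, p = 0.0569).

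Of the 38 miRNAs, 8 were called (6 to 11 under the alternatives, 7 to 10 without 1 bird) and 5 had a limma adjusted p under 0.05 (2 to 7 and 2 to 6). Without BPR bird 3 or PeM bird 1 these 5 became 3, and without PeM bird 8 they became 2. The filter at 2000 RPM left 3, with fewer miRNAs tested. With the bird number as a replicate block, on the 4 birds whose number (1 or 4) occurs in both breeds, 11 were called and 2 had an adjusted p under 0.05. MiR-2131-5p was then at 1.83, miR-2954 at -0.74 and the ratio at 2.57. Same-numbered birds of the breeds deviated with correlations of 0.03 and -0.17 over 38 miRNAs and are different animals. Depth limits both members: with 2 to 24 reads per bird, changes in a single bird are not resolved.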

Other observations

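Among the 37 other miRNAs, the lowest r with miR-2954 over the 12 birds, after subtracting breed means, was that of miR-21-5p (-0.70), next to miR-128-3p (-0.68). Within the 6 PeM birds r was -0.93 for each, and within BPR it was 0.01 and -0.30. For miR-2131-5p the lowest was miR-206, at -0.60, with -0.75 within PeM and 0.15 within BPR. These miRNAs were chosen after their values were seen, from 37 per member, and the values are given as a description.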
